A study of Homo sapiens with 6 samples.

Results

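The genes described here are 5 genes of the actin cytoskeleton and its motors, namely ACTB, ACTG1, PFN1, ARHGDIA and DYNLL1, measured in the LNCaP and LNCaP-AI prostate cancer cell lines. They were chosen as the cytoskeletal genes among the 20 control genes that have a probe spotted 10 times on each array, a rule that uses the probe's name, although it was set with earlier results of these data known. The 5 probes gave 50 spots on an array and 300 spots on the 6 arrays, beside 58965 transcript probes in all. All 5 passed the filter on dim probes and were among the 39107 probes tested. LNCaP is an androgen-dependent human prostate cancer line, kept in RPMI-1640 medium with fetal bovine serum. LNCaP-AI was derived from it by long culture in the same medium with charcoal-stripped serum, which is depleted of androgens, and the titles of its arrays carry P125. No transgene, knockdown or drug is named for the arrays of either line. Each line had 3 one-color Arraystar arrays, called LNCaP a, b and c and LNCaP-AI 1, 2 and 3 here. The design describes independent samples without saying that they were separate cultures, so the SDs and p-values rest on arrays. In the limma fits the variance of each gene was also moderated over all tested probes. LNCaP-AI is represented by a single derived line, and a property of that derivation cannot be told apart from one of androgen deprivation.

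ACTB and ACTG1 encode β-actin and γ-actin, the cytoplasmic actins whose monomers assemble into filaments beneath the plasma membrane and in the leading edge of moving cells. Profilin, the product of PFN1, binds actin monomers and hands them to growing filament ends. ARHGDIA encodes a GDP dissociation inhibitor, which holds small GTPases inactive in the cytosol. DYNLL1 encodes the light chain LC8, a small dimer found in cytoplasmic dynein and in myosin V. Actin genes are also targets of serum response factor (SRF), which binds the CArG box and whose coactivators are held back by free actin monomers.

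Because CArG boxes are known near actin genes, the 250 bases upstream of their RefSeq start sites are shown, with CArG boxes, CCAAT boxes and GC boxes in capitals. The windows come from the RefSeq promoter table of GRCh38.p14, in which 4 of the 5 genes were found by symbol, and each is written 5′ to 3′ on the strand of the gene. Where a gene has a pair of start sites, the outermost is shown. The ACTG1 window is chr17:81512800-81513049, the PFN1 window is chr17:4948531-4948780 and the ARHGDIA window is chr17:81871338-81871587, all on the minus strand. The DYNLL1 window is chr12:120469592-120469841 on the plus strand.
ACTG1: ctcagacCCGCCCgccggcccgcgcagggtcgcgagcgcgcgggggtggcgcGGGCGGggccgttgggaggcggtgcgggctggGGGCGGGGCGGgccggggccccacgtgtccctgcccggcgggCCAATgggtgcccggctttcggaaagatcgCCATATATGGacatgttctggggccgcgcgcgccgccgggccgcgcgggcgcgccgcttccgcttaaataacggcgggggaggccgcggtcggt
PFN1: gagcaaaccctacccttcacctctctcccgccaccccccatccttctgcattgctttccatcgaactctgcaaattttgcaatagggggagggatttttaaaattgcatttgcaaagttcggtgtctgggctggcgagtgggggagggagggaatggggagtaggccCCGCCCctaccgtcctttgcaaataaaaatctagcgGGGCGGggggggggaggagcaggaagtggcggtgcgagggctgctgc
ARHGDIA: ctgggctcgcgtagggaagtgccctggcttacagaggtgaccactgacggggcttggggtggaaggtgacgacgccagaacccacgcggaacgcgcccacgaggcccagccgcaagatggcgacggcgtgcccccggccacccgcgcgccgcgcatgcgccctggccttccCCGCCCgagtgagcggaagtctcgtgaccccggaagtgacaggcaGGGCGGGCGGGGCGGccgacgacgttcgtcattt
DYNLL1: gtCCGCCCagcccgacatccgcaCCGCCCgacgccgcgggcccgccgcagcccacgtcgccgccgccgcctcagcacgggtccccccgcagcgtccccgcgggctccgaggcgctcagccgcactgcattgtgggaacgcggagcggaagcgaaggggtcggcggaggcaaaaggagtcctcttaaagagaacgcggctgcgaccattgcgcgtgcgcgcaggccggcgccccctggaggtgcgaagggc

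The ACTG1 window held 1 CArG box, whose first base lies 94 bases before the start site. It also held 1 CCAAT box and 4 GC boxes. No CArG box was found in the windows of PFN1, ARHGDIA and DYNLL1, the second windows of ARHGDIA and DYNLL1 included. PFN1 had 2 GC boxes, ARHGDIA had 4 in the window shown and 8 in the other, and DYNLL1 had 2 in each. The other DYNLL1 window held 2 CCAAT boxes. The CCAAT box was searched as CCAAT, the GC box as GGGCGG and the CArG box by its consensus, each on both strands, and matches that overlapped were counted separately. Among 35116 RefSeq windows of the same length, 1.16% held a CArG box, 32.0% a CCAAT box and 42.6% a GC box. A match describes letters in the window and is not evidence of binding.

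All 300 spots of the 5 genes were well above background and 0 were saturated. The values are background-subtracted green intensities of the deposited files, and the mean over the spots of an array stands for a gene on that array. The brightness of a probe also depends on its own sequence, which is not in the files, so levels of different genes are not compared. Whether the ACTB and ACTG1 probes can also bind each other's transcript, or those of actin pseudogenes, was not tested for the same reason. Fewer cells of a kind and less RNA in each cell cannot be told apart in such bulk samples. Of the other 42 cytoskeletal genes and the 13 markers of prostate and other cells that were to be looked up, 0 had a named probe, since 58945 of the transcript probes are listed without a gene name or accession. The lines were therefore not checked against their markers here.

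β-actin differed little between the lines. The ACTB probe (NM_001101) gave intensities of 408273, 358112 and 372659 on LNCaP a, b and c. It gave 378521, 433304 and 389573 on LNCaP-AI 1, 2 and 3. The arrays of the lines overlapped, the lowest array being LNCaP b and the highest LNCaP-AI 2. After quantile normalization the log2 signal was 18.56, 18.59 and 18.55 in LNCaP and 18.55, 18.61 and 18.57 in LNCaP-AI. The fitted difference, LNCaP-AI minus LNCaP, was 0.01 on the log2 scale with a standard error of 0.10 and a limma adjusted p of 0.962. That standard error draws on the variance of all tested probes, whereas an unpaired t-test on the ACTB values alone gave one of 0.02. Its 95% confidence interval ran from 0.850-fold to 1.19-fold. Of all tested probes, 97.3% had a larger difference in either direction. The ACTB probe is among the brightest of the array, with 0.0153% of tested probes brighter over the 6 arrays, and quantile normalization holds the brightest ranks at nearly the same values. With each array scaled instead to its 75th percentile, which does not fix those ranks, ACTB was at 9.78, 10.04 and 10.02 in LNCaP and at 10.20, 10.00 and 10.14 in LNCaP-AI. The arrays still overlapped, and the difference was 0.17 with an adjusted p of 0.464.

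γ-actin showed no difference beyond the spread of the arrays either. The ACTG1 probe (NM_001614) gave intensities of 208982, 177182 and 173863 in LNCaP and of 160084, 203690 and 170733 in LNCaP-AI. The quantile-normalized log2 signal was 17.49, 17.55 and 17.43 in LNCaP and 17.43, 17.44 and 17.47 in LNCaP-AI. LNCaP c lay within the range of LNCaP-AI, and the other LNCaP arrays lay above it. The fitted difference was -0.05 with a standard error of 0.11, an interval from 0.813-fold to 1.15-fold and an adjusted p of 0.821. Its sign depended on the scaling, since it was 0.02 with an adjusted p of 0.924 after scaling to the 75th percentile. ACTB and ACTG1 therefore both had intervals that reach to either side of no change and exclude a 2-fold difference.

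Profilin varied most of the 5 genes between arrays of the same line in unnormalized and quantile-normalized values, though not after scaling to the 75th percentile, where its SDs of 0.03 in LNCaP and 0.07 in LNCaP-AI were below those of ACTB (0.15 and 0.10). The PFN1 probe (NM_005022) gave intensities of 277557, 194383 and 207572 in LNCaP and of 218236, 313568 and 255711 in LNCaP-AI. Its quantile-normalized log2 signal was 17.96, 17.74 and 17.75 in LNCaP and 17.81, 18.08 and 17.98 in LNCaP-AI. The lines overlapped because LNCaP a lay above LNCaP-AI 1, while 8 of the 9 pairs of arrays were higher in LNCaP-AI. The difference was 0.14 with a standard error of 0.13, an interval from 0.891-fold to 1.36-fold and an adjusted p of 0.542. Scaling to the 75th percentile separated the lines, with values of 9.22, 9.16 and 9.17 in LNCaP against 9.41, 9.54 and 9.54 in LNCaP-AI. On that scale the difference was 0.31, or 1.24-fold with an interval from 1.03-fold to 1.49-fold, and its adjusted p was 0.129. The separation of the lines in PFN1 thus rested on the scaling, and the adjusted p missed the threshold under both.

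ARHGDIA had the largest difference of the 5 genes. Its probe (NM_004309) gave intensities of 20766, 15581 and 14731 in LNCaP and of 20879, 23892 and 20980.3 in LNCaP-AI. The means were 17026 ± 3266 in LNCaP and 21917 ± 1711 in LNCaP-AI (SD over the 3 arrays of each line). Even these unnormalized values did not overlap, although LNCaP a came within 0.0076 on the log2 scale of the lowest LNCaP-AI array. After quantile normalization the log2 signal was 14.03, 14.09 and 13.97 in LNCaP and 14.46, 14.37 and 14.49 in LNCaP-AI, with a gap of 0.27 between the lines. LNCaP-AI was higher in 9 of 9 pairs of arrays. The difference was 0.40 with a standard error of 0.11, that is 1.32-fold with an interval from 1.11-fold to 1.58-fold. The limma p was 0.00744 before and 0.0506 after adjustment over all tested probes, just above the threshold of 0.05. With scaling to the 75th percentile the values were 5.48, 5.52 and 5.36 in LNCaP and 6.02, 5.82 and 5.93 in LNCaP-AI. That difference of 0.47, or 1.39-fold with an interval from 1.14-fold to 1.69-fold, passed the threshold with an adjusted p of 0.0432. Over 13 settings that used all arrays, the quantile-normalized limma fit included, the difference of ARHGDIA lay between 0.38 and 0.47. It was above 0 in 13 and passed in 9, with adjusted p from 0.0162 to 0.435. These settings share the same 6 arrays, and some change only the variance or the probes tested. Their common sign is therefore no added support.

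DYNLL1 was next in size. Its probe (NM_003746) gave intensities of 145408, 111852 and 105257 in LNCaP and of 151664, 156332 and 140442 in LNCaP-AI. LNCaP a overlapped with LNCaP-AI before normalization and not after it. The quantile-normalized log2 signal was 16.90, 16.89 and 16.75 in LNCaP and 17.30, 17.08 and 17.20 in LNCaP-AI, with a gap of 0.19. The difference was 0.35 with a standard error of 0.12, or 1.27-fold with an interval from 1.05-fold to 1.54-fold. LNCaP-AI was higher in 9 of 9 pairs of arrays, and the limma p was 0.0208 before and 0.0995 after adjustment. Scaling to the 75th percentile gave 8.29, 8.36 and 8.19 in LNCaP and 8.88, 8.53 and 8.67 in LNCaP-AI. The difference was then 0.41, or 1.33-fold, with an adjusted p of 0.0941. Over the 13 settings that used all arrays, the difference of DYNLL1 lay between 0.32 and 0.44 and passed the threshold in 2.

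**Figure D1:**
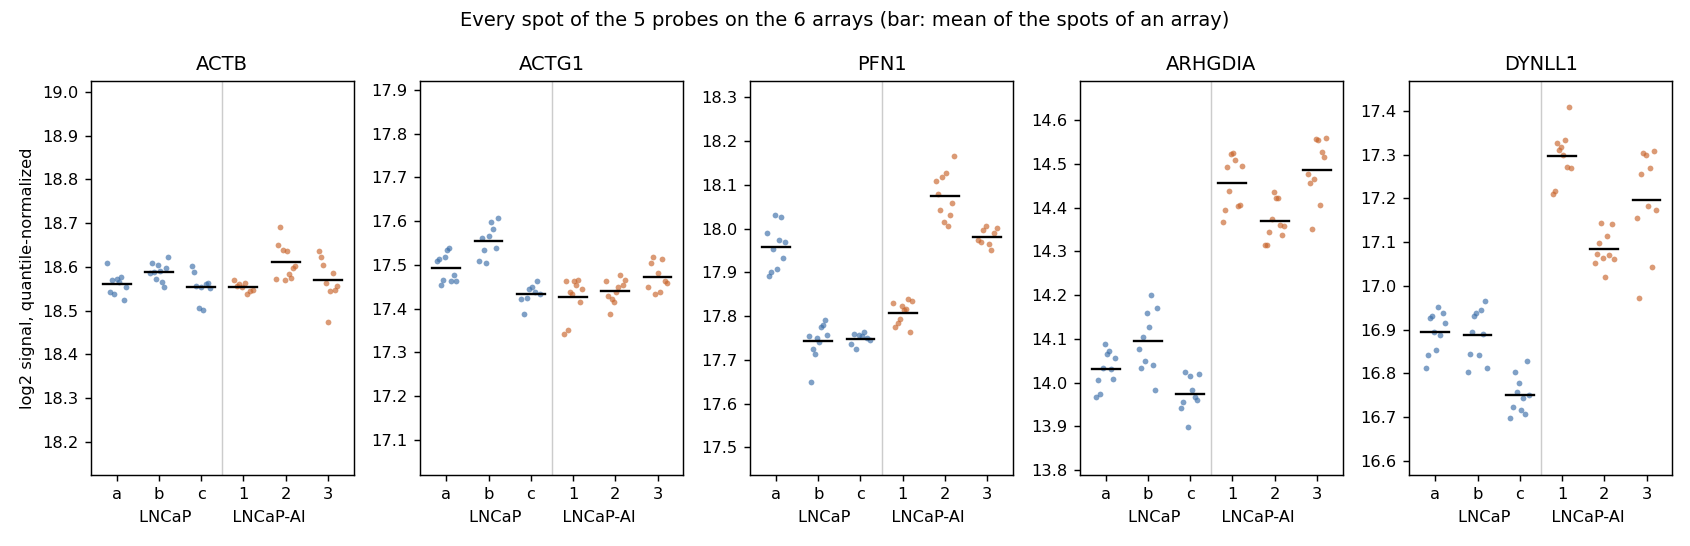
Quantile-normalized log2 signal (vertical axis) of every spot of the 5 probes on LNCaP a, b and c and LNCaP-AI 1, 2 and 3 (horizontal axis), each point 1 spot and each bar the mean of the spots of 1 array, with all panels spanning the same length of scale. ARHGDIA and DYNLL1 have all LNCaP-AI spots above all LNCaP spots, PFN1 varies most within a line, and ACTB and ACTG1 overlap.

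Read over the 5 genes, 0 passed an adjusted p of 0.05 in the quantile-normalized limma fit, where 14.6% of all tested probes passed. ARHGDIA and DYNLL1 were the 2 with an unadjusted p under 0.05, as were 11171 of all tested probes. The methods' t-test, unpaired and run on the same values, passed 1 of the 5 after Benjamini-Hochberg adjustment, ARHGDIA, beside 9.72% of all tested probes. None of the 5 genes reached 2-fold, the limit used with that test in the study's supplement. For 2 of the 5 genes the arrays of the lines did not overlap, beside 35.0% of all tested probes. After scaling to the 75th percentile, 1 of the 5 passed against 13.9% of all tested probes, and 3 did not overlap against 34.1%. The members' median difference was 0.14 with quantile normalization, beside -0.02 for all tested probes, and 0.31 beside 0.01 after scaling to the 75th percentile. It was 0.28 when arrays were centred on the other 15 control genes and 0.21 without normalization. In an exact two-sided permutation test over the arrays, ARHGDIA and DYNLL1 each had a p of 0.1, the smallest that 3 arrays against 3 can give, and ACTB, ACTG1 and PFN1 had 0.6, 0.3 and 0.2. Differences of these sizes were common on the array, as 28.1% of tested probes differed by more than ARHGDIA, 34.0% by more than DYNLL1 and 68.3% by more than PFN1.

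**Figure D2:**
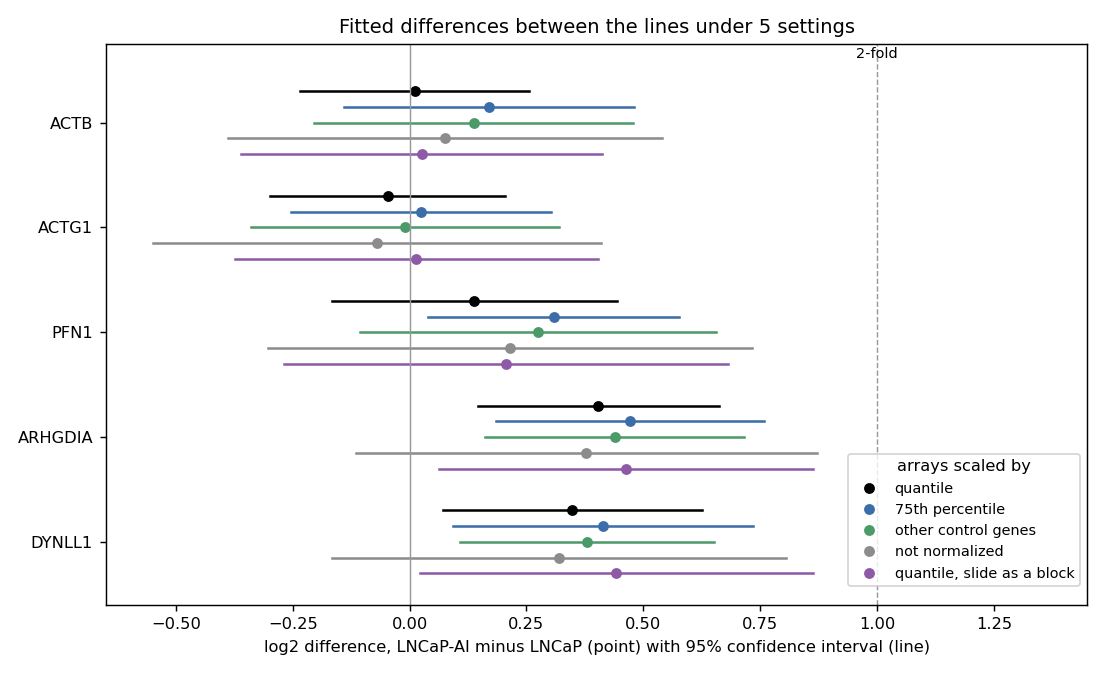
Fitted log2 difference, LNCaP-AI minus LNCaP (horizontal axis), of the 5 genes (vertical axis) under 5 settings, each point with its 95% confidence interval from limma. The points of ARHGDIA and DYNLL1 lie to the right of 0 under each of the 5 settings, between 0.32 and 0.47. Their intervals cross 0 without normalization. No interval reaches the dashed 2-fold line, and the unnormalized intervals are the widest. The setting labelled slide as a block fits the first number of the array codes, which the headers do not call a slide.

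The arrays of the lines were not spread evenly over the array codes in the headers. The first number of the code was 1 for LNCaP a and b. It was 2 for LNCaP c and the 3 LNCaP-AI arrays. Arrays with the same first number are called a block here. Whether a block is a slide or a place on 1 slide is not stated there and was not tested. In the shared block the LNCaP-AI mean exceeded LNCaP c by 0.46 in ARHGDIA, 0.44 in DYNLL1 and 0.21 in PFN1 on the quantile-normalized log2 scale. It did so by 0.03 in ACTB and 0.01 in ACTG1. These values rest on 1 LNCaP array. Between the blocks, LNCaP c was below the mean of LNCaP a and b in all 5 genes on the same scale. It was below by 0.09 in ARHGDIA, 0.14 in DYNLL1, 0.10 in PFN1, 0.09 in ACTG1 and 0.02 in ACTB. The LNCaP array that shares the block of LNCaP-AI was the lowest of its line in every gene but PFN1. With the block in the limma fit the adjusted p was 0.206 for ARHGDIA and 0.247 for DYNLL1. Leaving out each array in turn gave differences from 0.37 to 0.44 for ARHGDIA and from 0.29 to 0.40 for DYNLL1, and none of the 5 genes passed the threshold in any of these 6 limma fits.

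The ratio of a pair of probes on the same array does not depend on any single factor by which that array is scaled. It was taken from unnormalized values and used to see whether the genes changed unequally. Both actins were lower relative to ARHGDIA on every LNCaP-AI array than on any LNCaP array. The log2 ratio of ACTG1 to ARHGDIA was 3.33, 3.51 and 3.56 in LNCaP and 2.94, 3.09 and 3.03 in LNCaP-AI, a fall to 0.733 of its LNCaP value. The log2 ratio of ACTG1 to DYNLL1 was 0.52, 0.66 and 0.72 in LNCaP and 0.08, 0.38 and 0.28 in LNCaP-AI, or 0.764 of the LNCaP value. Both separated the lines, the first by a gap of 0.24 and the second by 0.14. ACTB over ARHGDIA changed by -0.30 and ACTB over DYNLL1 by -0.24, and both also separated the lines, the latter by only 0.02. The ratio of ACTG1 to PFN1 changed by -0.28 and separated the lines by 0.04, but overlapped when computed from quantile-normalized values. In all, 5 of the 10 pairs of genes separated the lines, each with an exact permutation p of 0.1 and 0.2 after adjustment over the 10 pairs. The share of such ratios among pairs of other probes was not computed. Of single probes without normalization, which unlike a ratio keep the scale of the array, 9176 of 39107 did not overlap between the lines. The share of single probes was 35.0% after quantile normalization and 34.1% after scaling to the 75th percentile. The 10 pairs share 5 genes and are not independent. Apart from ACTG1 over PFN1, each separating pair sets an actin against ARHGDIA or DYNLL1. ARHGDIA over DYNLL1 changed by 0.06 (exact permutation p = 0.4) and ACTB over ACTG1 by 0.15 (p = 0.2), and the arrays of the lines overlapped in both. Quantile normalization, which is not a single factor, moved the ratios. From its values 4 of the 10 pairs separated the lines, ACTB over ACTG1 changed by 0.06 and PFN1 over DYNLL1 by -0.21 in place of -0.10. The SD between arrays of the ARHGDIA to DYNLL1 ratio was 0.02 in LNCaP and 0.08 in LNCaP-AI.

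**Figure D3:**
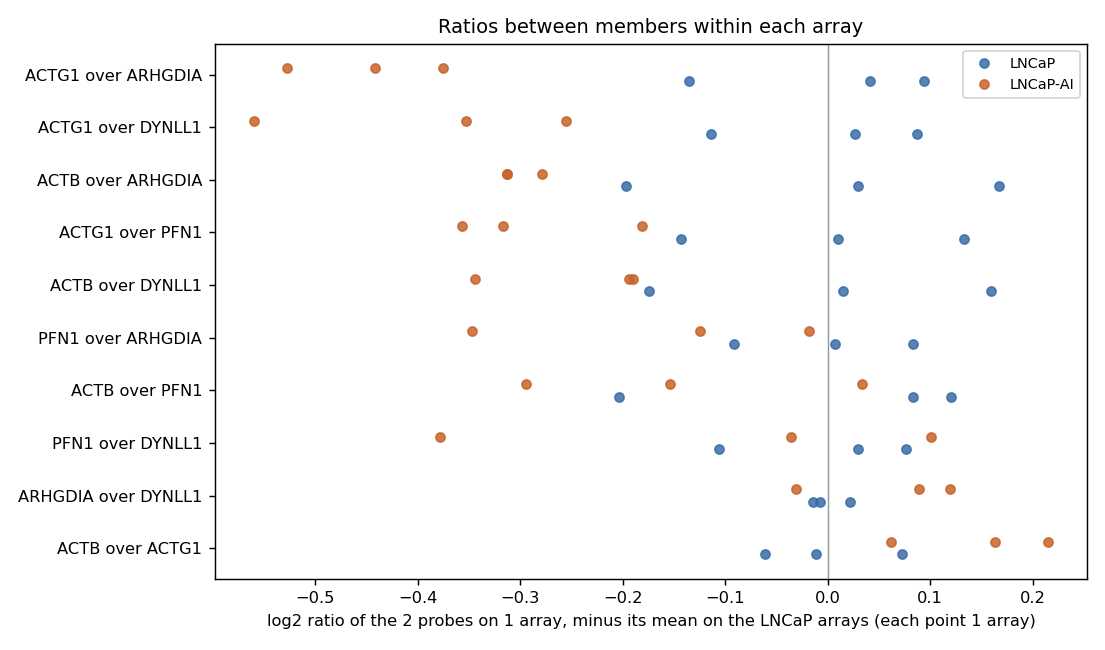
Log2 ratio of 2 probes on the same array, minus its mean over the LNCaP arrays (horizontal axis), for the 10 pairs of genes (vertical axis), each point 1 array. The LNCaP-AI points of the actins over ARHGDIA or DYNLL1 and of ACTG1 over PFN1 all lie left of the LNCaP points, and the other 5 pairs overlap.

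The repeated spots show how finely a change can be read within an array. The coefficient of variation over the spots of an array was 0.482% to 1.70% for PFN1 and 0.967% to 1.63% for ACTG1. It was 0.861% to 2.94% for ACTB, 2.60% to 4.64% for ARHGDIA and 2.41% to 7.04% for DYNLL1. Of the 300 spots, 14 were marked as outliers and left out of these values, 5 of ACTB, 4 of ACTG1, 4 of PFN1 and 1 of ARHGDIA. With marked spots kept, the highest coefficient was 9.68% for ARHGDIA, 3.84% for ACTB, 3.24% for PFN1 and 2.78% for ACTG1. The spots of an array are repeats of 1 hybridization and not replicates of a line. On the normalized log2 scale, the SD between arrays of a line was 0.13 for PFN1, against 0.04 among its spots. For ARHGDIA both were 0.06, and for DYNLL1 they were 0.09 and 0.07. For ACTB they were 0.02 and 0.03. Quantile normalization narrowed the SD of ACTB between arrays from 0.0998 to 0.0246 and widened that among its spots from 0.0262 to 0.0323. The SD among spots also widened for PFN1, from 0.0175 to 0.0372, and for ACTG1, from 0.0198 to 0.0335. It rose less for ARHGDIA, from 0.0512 to 0.0558, and for DYNLL1, from 0.0590 to 0.0651. Before normalization the SD between arrays was 0.27 for PFN1, 0.20 for ARHGDIA, 0.18 for DYNLL1, 0.16 for ACTG1 and 0.10 for ACTB, in each case more than among spots.

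Taken spot by spot on the quantile-normalized log2 scale, the differences were of 1 direction across the array for all but ACTB. The spots of a probe share the same 6 arrays and their scaling, so their agreement adds no support for a difference between the lines. ACTG1, for one, changed sign after scaling to the 75th percentile (0.02). The mean over LNCaP-AI exceeded that over LNCaP at 10 of 10 spots for ARHGDIA, DYNLL1 and PFN1, at 8 of 10 for ACTB and at 0 of 10 for ACTG1. At all 10 spots of ARHGDIA, and at all 10 of DYNLL1, every LNCaP-AI array lay above every LNCaP array on this scale. Spot 7 of ARHGDIA was left out as an outlier on LNCaP c. Before normalization some spots overlapped. DYNLL1 spot 2 had 139924 on LNCaP a and 121973 on LNCaP-AI 3, and ARHGDIA spot 3 had 19996 and 19511 on these arrays. The difference at a spot ranged from 0.31 to 0.44 for ARHGDIA and from 0.29 to 0.38 for DYNLL1. It ranged from 0.05 to 0.18 for PFN1, for which no spot separated the lines. The lowest ARHGDIA spot of any LNCaP-AI array, at 14.31, was above the highest of any LNCaP array, at 14.20. For DYNLL1 these spots were at 16.97 and 16.96.

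The same spots of DYNLL1 and ARHGDIA were dim or bright on array after array. Over 15 pairs of arrays, Pearson's r of the deviations of the 10 spots averaged 0.693 for DYNLL1 and 0.518 for ARHGDIA, and was above 0 in 15 of 15 for both. It averaged 0.139 for ACTB, 0.148 for ACTG1 and 0.0724 for PFN1. The first 2 spots of DYNLL1 were below the mean of their array on 6 of 6 arrays, and spots 3, 4, 7 and 9 were above it on 6 of 6. Spots 1 and 2 of ARHGDIA were likewise below, and spots 5 and 6 above, on 6 of 6 arrays. Arrays of both lines showed these patterns.

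**Figure D4:**
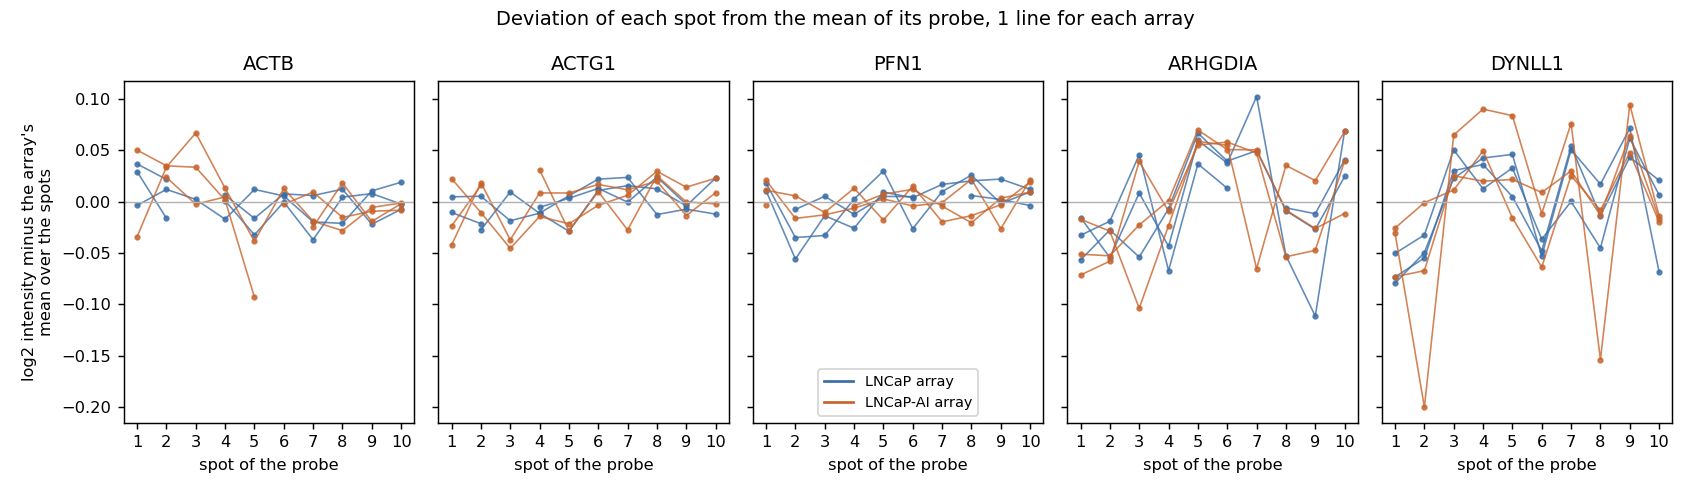
Deviation of each spot from the mean of its probe on its array, in log2 intensity (vertical axis), against the number of the spot (horizontal axis), with 1 line for each of the 6 arrays and a break where a spot was marked as an outlier. The lines run together for DYNLL1 (mean r = 0.693) and ARHGDIA (mean r = 0.518), in LNCaP and LNCaP-AI alike, and cross for ACTB, ACTG1 and PFN1.

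Among the other 19 repeated control genes, the one whose quantile-normalized log2 signal followed a gene most closely over the 6 arrays is given for 4 of the 5 genes, as a description that rests on 6 shared arrays. For both ARHGDIA (r = 0.992) and DYNLL1 (r = 0.973) it was PGK1, which encodes the glycolytic enzyme phosphoglycerate kinase. PGK1 was at 9.25, 9.32 and 9.18 in LNCaP and at 9.95, 9.77 and 9.87 in LNCaP-AI, and its difference of 0.61 passed the threshold with a limma adjusted p of 0.0132. ARHGDIA and DYNLL1 followed each other with an r of 0.962. ACTG1 was closest to GAPDH (r = 0.851), another glycolytic gene. The nearest gene to ACTB was GRM4, which encodes a glutamate receptor, with an r of 0.648. GRM4 lay between 5.85 and 6.19 on the log2 scale. ACTB had an SD of 0.02 in LNCaP and 0.03 in LNCaP-AI, so this r rests on small differences. After scaling to the 75th percentile, ARHGDIA kept PGK1 (r = 0.994) and ACTG1 kept GAPDH (r = 0.866), while ACTB was closest to GAPDH (r = 0.976) and PFN1 to PGK1 (r = 0.895).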

How the data were processed

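The authors purified mRNA after removal of rRNA, labeled it with Cy3 and hybridized 1 array per sample. They deposited the output of Feature Extraction 11.0.1.1, whose processed signal is a background-subtracted intensity that still differs in scale between arrays. The paper's normalization in GeneSpring was not used. On an array, 64.6% to 67.3% of probes stood well above background and the median intensity was 65.0 to 86.4. Precision is limited by having 6 arrays.

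Here, controls and outlier-marked spots were dropped, values below 1 were raised to 1 before log2, quantiles were equalized over the 6 arrays, and the spots of each probe were averaged. A probe was tested if at least 3 of the 6 arrays had it well above background. The test was limma 3.58.1 (R 4.3.3), with moderated variances and two-sided p-values adjusted by Benjamini-Hochberg over every tested probe. No p was adjusted over the 5 genes alone. Exact permutation tests used scipy 1.17.1. The fits were also run on simulated independent arrays, without blocks or differences in array scale, and the outcome is not reported here. All 20 repeated probe accessions matched a RefSeq symbol. Positions come from the RefSeq GRCh38.p14 promoter table alone, since the array design uses hg19.

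The genes, lists and tests were chosen with earlier results of these data known. Named are the 5 genes and, for each, the repeated control gene with the highest Pearson r over the 6 arrays. The closest gene to PFN1, and that to DYNLL1 under the other scaling, are not reported here. The alternatives rescaled arrays to the 75th percentile, centred them on the other 15 control genes or left them unnormalized. Others used normexp with an offset of 50 (on the median spot signal, since the files hold no mean signal), no filter, a filter of all 6 arrays, marked spots kept, or the median of spots. The remaining ones fitted a variance trend, weights for arrays, the block from the array codes or the methods' t-test, or left out each array. Scaling on the spike-in spots was planned and not run, because the highest spike-in probe had a median of 32.9 to 66.3 on an array and the scanner software fitted a slope of 0 to them.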

Additional observations from a re-analysis of the deposited data

How the results depend on the processing

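ARHGDIA passed an adjusted p of 0.05 under 9 alternatives, with a difference of 0.47 after 75th percentile scaling, 0.40 with normexp, with no filter, with the filter of all 6 arrays, with a variance trend and in the methods' t-test, 0.42 with marked spots kept, 0.41 with the median of spots and 0.43 with array weights, at adjusted p from 0.0162 to 0.0499. DYNLL1 passed with normexp (0.35, adjusted p = 0.0440) and a variance trend (0.35, adjusted p = 0.0360). The number of the 5 genes that passed was therefore 2 under these latter settings, 1 under 75th percentile scaling, no filter, the filter of all 6 arrays, marked spots kept, the median of spots, array weights and the methods' t-test, and 0 otherwise. ACTG1 changed sign with 75th percentile scaling (0.0240), with the block in the fit (0.0139) and within the shared block (0.0139). Leaving out each array gave ACTB differences from -0.00484 to 0.0226, the sign turning without LNCaP-AI replicate 2, ACTG1 differences from -0.08 to -0.02 and PFN1 differences from 0.07 (LNCaP-AI 2 left out) to 0.22 (LNCaP a left out). Of all tested probes, 5714 passed in the quantile-normalized limma fit, and 2142 when at least 2-fold was also required. The count was 2954 without normalization, 1645 with the block in the fit and 3800 in the methods' t-test. It was 6176 with normexp, 6381 with a variance trend and 8263 with array weights. Scaling to the 75th percentile gave 5430, marked spots kept 5713 and the median of spots 5715. With no filter 5036 of 58965 probes passed, and with the filter of all 6 arrays 5319 of 34939. With an array left out the count was 2910 to 5799, the lowest without LNCaP-AI replicate 3. Without LNCaP replicate a, b or c it was 3419, 3362 and 3448. The causes of these shifts were not tested. No paired analysis was possible because the arrays of the lines share no replicate numbers. With 3 arrays per line, the call of ARHGDIA depended on the setting. Its difference was above 0 under every alternative run, all of which reuse the same arrays.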
